A study of Rattus norvegicus with 16 samples.

Results

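Gene expression in the liver of rats on untreated feed was compared between day 14 and day 3 of a feeding study, with 4 arrays from rats killed on day 14 and 4 from rats killed on day 3. Both groups were male RccHan Wistar rats, given as 7 to 8 weeks old and housed 2 or 3 a cage on standard chow. The study also fed phenformin, a biguanide that lowers blood glucose, at 3000 ppm in the diet to rats killed on the same days, which gave another 4 arrays a day and 16 arrays in all. The labels state 5 animals a group, and 4 a group were analysed here. Each array was taken as 1 animal, since the sample titles number them as biological replicates. The days hold different animals, so days on study, age and the session of killing cannot be told apart. The labels do not say which animals shared a cage, so the p-values measure the spread between these arrays as if they were independent.

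The liver of a young rat is still growing. Hepatocytes in such a liver divide now and then, while in the adult organ most rest outside the cell cycle and return to it after injury or loss of tissue. A dividing cell first raises the enzymes that make deoxynucleotides and copy DNA, and then the cyclins, kinases and motor proteins that carry it through mitosis. The collagens around the cells come mainly from stellate cells and fibroblasts. Fatty acid synthesis in hepatocytes follows feeding, insulin and carbohydrate supply, and the resident macrophages and the sinusoidal endothelium make up much of the rest of the tissue.

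RNA from liver pieces was read on a 1-colour Affymetrix whole-transcript array, in which a probe set is a group of probes for 1 transcript. The deposited value is an intensity on a linear scale. Levels below are log2 of that intensity, and a change is the day 14 mean minus the day 3 mean, so that 1 unit is a ratio of 2. The table held 68842 probe sets, of which 23446 carried 1 gene symbol and stood for 22093 genes. The 8 control arrays correlated with each other between 0.989 and 0.994. Albumin (Alb) lay between 19.87 and 19.91, at the top of the scale (highest value 19.93), so that its level says nothing about how well the arrays agree. The 9 measured hepatocyte markers averaged 16.91 to 17.05 on the day 14 arrays and 17.02 to 17.09 on the day 3 arrays. On day 3 array 2 the 6 skeletal muscle markers averaged 6.32, against 5.27 to 5.54 on the day 14 arrays and 5.41 to 5.58 on the other day 3 arrays. Values without that array are given with the dependence on single arrays.

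At day 14, genes of cell division were lower than at day 3, among them Rrm2, the inducible subunit of ribonucleotide reductase, at 14.6-fold (adjusted p = 0.0303). The collagen genes Col3a1, Col1a1 and Col6a2 and malic enzyme (Me1) were lower as well, and a small set that includes the lymphocyte GTPase gene Gimap4 was higher. Of the 22093 genes, 78 were lower at day 14 and 11 were higher at an adjusted p under 0.05 (limma, Benjamini-Hochberg over all genes), which is 0.353% lower and 0.0498% higher. At an unadjusted p under 0.05, 1035 genes (4.68%) were lower and 545 genes (2.47%) higher. Without any test, 653 genes (2.96%) were lower on every day 14 array than on any day 3 array, and 341 genes (1.54%) were higher. The median change over all genes was -0.00. Counts within a gene list below are to be read beside these shares over all genes.

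The 78 lower genes changed by 1.26-fold to 17.5-fold, with a median of 1.79-fold, and 28 of them by 2-fold or more. In 77 of the 78 the day 14 and day 3 arrays did not overlap. The exception was Edil3, named here after its values were seen, an adhesion gene whose highest day 14 array (6.10) lay above its lowest day 3 array (6.03). The 11 higher genes changed by 1.37-fold to 2.87-fold, and none overlapped. Adjusted p-values of the calls ran between 0.0165 and 0.0499. Many calls were at low levels: the median gene averaged 5.86 over all 16 arrays. The day 14 mean lay below that level in 46 of the 78 lower genes and 4 of the 11 higher genes. In bulk tissue, fewer cells of a type and less RNA per cell cannot be told apart, and this holds for each gene group below.

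Of the lower genes, 38 belonged to the lists for mitosis and cell cycle control (27 of 61 measured, 44.3%) and for DNA replication and nucleotide supply (11 of 50 measured, 22.0%). The promoters of the called members with the largest falls that held a searched motif are shown here, because promoters of mitotic genes are known to share a cell cycle homology region placed near CCAAT boxes, where the DREAM complex and NF-Y bind. Sequences run 5′ to 3′ on the gene's strand from 250 bases before to 50 bases after its start, from RefSeq on GRCr8. Capitals mark TTTGAA or TTCGAA (the cell cycle homology region) and CCAAT, on either strand. Promoters were found for 22 of the 27 called mitosis genes and 10 of the 11 called replication genes. A called gene not shown, such as Rrm2 or Ccna2, may therefore lack a promoter here rather than a motif. Top2a lies at chr10:84473044-84473343 (minus strand), Ect2 at chr2:111966577-111966876 (minus strand) and Ccnb2 at chr8:79981609-79981908 (minus strand). Ccnb2 ranks here by a probe set with a chromosome 1 identifier (change -1.73), and its chromosome 8 probe set changed by -0.99. Of the replication genes, Prim1 lies at chr7:1031212-1031511 (plus strand), Mcm6 at chr13:42404303-42404602 (minus strand) and Rrm1 at chr1:166235654-166235953 (plus strand).
Top2a: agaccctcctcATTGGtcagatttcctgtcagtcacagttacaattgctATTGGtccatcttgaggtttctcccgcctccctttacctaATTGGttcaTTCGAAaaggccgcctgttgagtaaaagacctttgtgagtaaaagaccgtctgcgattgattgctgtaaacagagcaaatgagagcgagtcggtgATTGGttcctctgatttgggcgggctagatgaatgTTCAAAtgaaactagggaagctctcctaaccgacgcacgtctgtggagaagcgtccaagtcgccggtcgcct
Ect2: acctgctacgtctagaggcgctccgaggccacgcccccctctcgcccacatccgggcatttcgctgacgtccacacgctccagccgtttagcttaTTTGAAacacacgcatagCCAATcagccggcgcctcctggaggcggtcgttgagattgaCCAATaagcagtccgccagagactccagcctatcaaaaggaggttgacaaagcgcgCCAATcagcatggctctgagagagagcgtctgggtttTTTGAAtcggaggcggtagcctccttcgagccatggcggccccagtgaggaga
Ccnb2: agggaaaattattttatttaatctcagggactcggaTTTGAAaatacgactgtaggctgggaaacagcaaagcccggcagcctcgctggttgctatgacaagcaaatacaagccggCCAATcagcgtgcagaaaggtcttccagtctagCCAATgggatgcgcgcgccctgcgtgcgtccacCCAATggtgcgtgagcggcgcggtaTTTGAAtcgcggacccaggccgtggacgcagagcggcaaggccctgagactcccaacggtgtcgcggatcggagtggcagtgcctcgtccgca
Prim1: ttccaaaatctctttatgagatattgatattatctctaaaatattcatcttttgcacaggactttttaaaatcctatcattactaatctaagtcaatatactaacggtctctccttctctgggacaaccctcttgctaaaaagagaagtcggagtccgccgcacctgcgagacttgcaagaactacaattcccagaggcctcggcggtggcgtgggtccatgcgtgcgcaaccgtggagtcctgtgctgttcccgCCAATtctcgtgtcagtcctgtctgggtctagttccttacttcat
Mcm6: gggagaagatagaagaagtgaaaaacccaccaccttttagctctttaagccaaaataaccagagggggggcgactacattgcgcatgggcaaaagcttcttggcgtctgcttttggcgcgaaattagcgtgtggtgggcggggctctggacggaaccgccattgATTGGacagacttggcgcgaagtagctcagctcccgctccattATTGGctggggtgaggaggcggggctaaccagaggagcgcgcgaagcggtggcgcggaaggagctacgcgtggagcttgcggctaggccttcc
Rrm1: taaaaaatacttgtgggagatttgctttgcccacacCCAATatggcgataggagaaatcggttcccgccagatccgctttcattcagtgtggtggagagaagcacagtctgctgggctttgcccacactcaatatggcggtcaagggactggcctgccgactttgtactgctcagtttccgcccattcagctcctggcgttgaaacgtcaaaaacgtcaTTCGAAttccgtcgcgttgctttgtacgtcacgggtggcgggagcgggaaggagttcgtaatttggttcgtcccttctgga
Top2a held 2 homology motifs and 4 CCAAT boxes, and Ect2 and Ccnb2 each held 2 homology motifs and 3 CCAAT boxes. Prim1 held 1 CCAAT match, which lies after the gene's start. Mcm6 held 2 CCAAT boxes, and Rrm1 held 1 of each motif. No matches overlapped in these 6 promoters. Over the called mitosis genes with a promoter in the table, 14 of 22 (63.6%) held the homology motif and 19 of 22 (86.4%) held CCAAT. Over all measured mitosis genes these were 31 of 49 (63.3%) and 34 of 49 (69.4%). The called replication genes had 3 of 10 (30%) with the homology motif and 4 of 10 (40%) with CCAAT, and all measured replication genes had 10 of 45 (22.2%) and 25 of 45 (55.6%). Among all 27457 promoters of that length, 19.5% held the homology motif, 37.7% held CCAAT and 7.83% held both. Of the called members of the 2 lists, 13 of 32 (40.6%) held both. A match is a description of these letters and not a bound site.

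Mitosis genes were lower at day 14 across the whole list: all 61 measured members had a change below 0, with a median of -0.74, 56 passed an unadjusted p under 0.05, and 27 passed after adjustment. In 53 of the 61 (86.9%) every day 14 array lay below every day 3 array. The mean level of the list was 5.56, 5.21, 5.79 and 5.57 on the day 14 arrays, against 6.57, 6.45, 6.21 and 6.38 on the day 3 arrays. Day 14 array 2 was lowest in its group and day 3 array 3 lowest in its own, and the groups did not overlap.

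Among the genes that drive entry into mitosis, Ccna2, the cyclin of S phase and early mitosis, had levels of 6.44, 5.52, 6.85 and 6.18 at day 14, against 8.65, 8.38, 7.97 and 8.15 at day 3. All day 14 arrays lay more than 1 unit below the lowest day 3 array. Ccna2 was 4.12-fold lower (95% interval 2.38 to 7.15, adjusted p = 0.0339). Cdk1, the mitotic kinase, had 4.92, 4.67, 5.12 and 4.83 at day 14, against 6.19, 5.91, 5.95 and 5.85 at day 3. The arrays of each day lay close together, and Cdk1 was 2.13-fold lower (interval 1.71 to 2.66) with an adjusted p of 0.0165, a value that no gene went below. Its partners Ccnb2 and Ccnb1 were 3.31-fold (adjusted p = 0.0388) and 2.58-fold lower (adjusted p = 0.0486). The probe set for Ccnb2 carries a chromosome 1 identifier while RefSeq places the gene on chromosome 8, and a second probe set on chromosome 8 changed by -0.99. Mastl, which is in neither list, a kinase that protects Cdk1 substrates from dephosphorylation, was 2.80-fold lower (adjusted p = 0.0388). Foxm1, a transcription factor of mitotic genes, was 1.26-fold lower (adjusted p = 0.0388), with its 4 day 14 arrays between 4.93 and 5.03 and its 4 day 3 arrays between 5.25 and 5.40.

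Genes that untangle and separate chromosomes fell as well. Top2a, the topoisomerase that decatenates sister chromatids, had levels of 6.50, 5.20, 7.33 and 6.52 at day 14, against 9.04, 8.98, 8.22 and 8.46 at day 3. Day 14 array 2 was the lowest by more than 1 unit, and the groups did not overlap. Top2a averaged 6.39 ± 0.88 at day 14 and 8.68 ± 0.40 at day 3 (SD, n = 4 each), a level 4.88-fold lower (interval 2.51 to 9.48, adjusted p = 0.0421). The condensin subunit Ncapg was 2.50-fold lower (adjusted p = 0.0303), the spindle protein Nusap1 was 2.49-fold lower (adjusted p = 0.0329) and the spindle motor Kif11 was 2.17-fold lower (adjusted p = 0.0303). The checkpoint kinases Ttk (2.28-fold, adjusted p = 0.0200) and Bub1 (2.23-fold, adjusted p = 0.0303) fell too, as did Aurkb, the kinase of the chromosomal passenger complex (1.83-fold, adjusted p = 0.0303). The kinetochore gene Casc5, an older name of Knl1 and not matched by the list, was 2.50-fold lower (adjusted p = 0.0200). Of the genes that complete division, Ect2, an exchange factor for the contractile ring, was 3.40-fold lower (adjusted p = 0.0486), and the motor Kif20a was 2.75-fold lower (adjusted p = 0.0499). Mki67, the marker gene of cycling cells, had the lowest change in the list without passing and is named after its values were seen. Its levels were 7.34, 6.05, 7.99 and 7.49 at day 14, against 9.94, 9.74, 9.16 and 9.62 at day 3, a change of -2.40 with an adjusted p of 0.0655. These arrays did not overlap either.

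**Figure D1:**
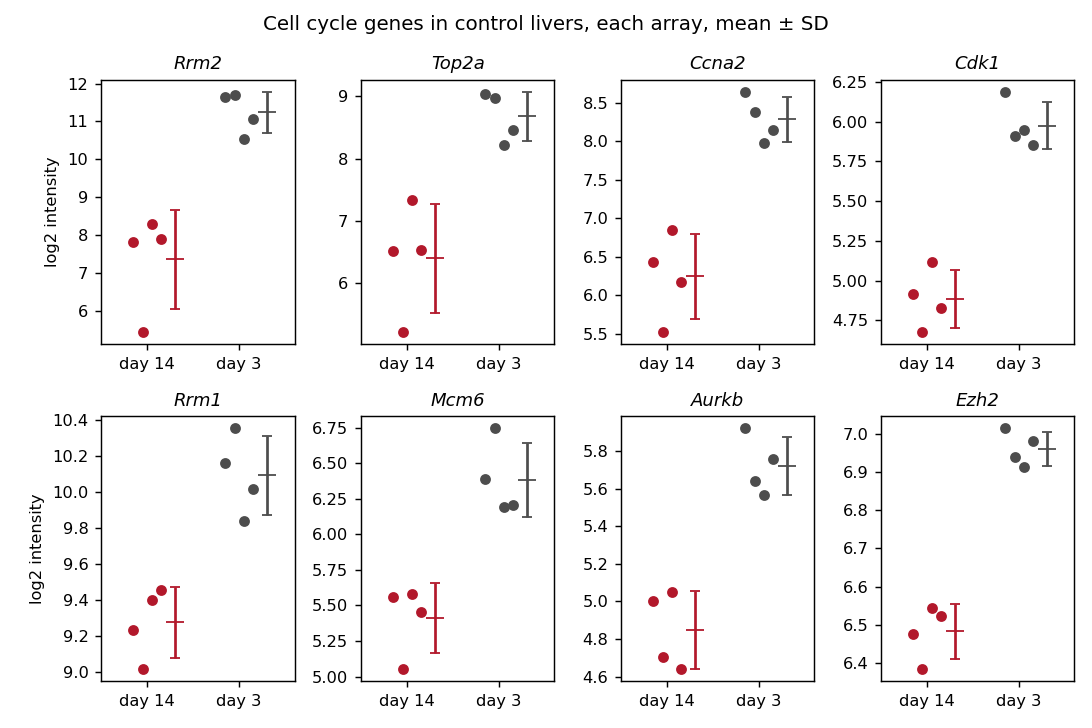
Levels of cell cycle genes, 1 point an array with the mean ± SD (n = 4) beside the points, as log2 of the deposited intensity, for control livers at day 14 (red, left) and day 3 (grey, right). In all 8 panels every day 14 array lies below every day 3 array, and for Rrm2, Top2a, Ccna2 and Cdk1 day 14 array 2 is the lowest.

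In the list for DNA replication and nucleotide supply 11 genes fell, among them both measured subunits of ribonucleotide reductase, the enzyme that makes deoxynucleotides. Of 50 measured members, 48 had a change below 0, with a median of -0.28, 31 were lower at an unadjusted p under 0.05, and 26 (52.0%) had no overlap. Rrm2 had levels of 7.83, 5.45, 8.30 and 7.90 at day 14, against 11.66, 11.69, 10.55 and 11.06 at day 3. The 4 day 3 arrays stood above all of the day 14 arrays, among which array 2 was far the lowest. Rrm2 averaged 7.37 ± 1.30 at day 14 and 11.24 ± 0.54 at day 3 (SD, n = 4 each), with an interval of 5.51-fold to 38.7-fold and an adjusted p of 0.0303. Without day 14 array 2 its change was -3.23, against -3.87 with all arrays, and it did not pass. A second entry named Rrm2l1 was 17.5-fold lower (adjusted p = 0.0339), with a change of -4.13, or -3.38 and not past the threshold without day 14 array 2; from its name it may read the same transcripts, and the pair is not counted as independent here. Rrm1, the large subunit, had 9.23, 9.01, 9.40 and 9.46 at day 14, against 10.16, 10.35, 9.84 and 10.01 at day 3. It was 1.76-fold lower (interval 1.49 to 2.08, adjusted p = 0.0165), with the 2 groups well apart.

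The helicase subunit Mcm6 had levels of 5.56, 5.05, 5.58 and 5.46 at day 14, against 6.39, 6.74, 6.19 and 6.21 at day 3, a 1.96-fold fall with an adjusted p of 0.0178. Day 3 array 2 was highest and day 14 array 2 lowest. Its partner Mcm5 was 1.61-fold lower (adjusted p = 0.0178) and Prim1, the primase that starts each DNA strand, was 2.17-fold lower (adjusted p = 0.0404). Tyms, which makes thymidylate, was 1.57-fold lower (adjusted p = 0.0476). The repair genes Fancd2 and Brip1 of the Fanconi pathway were 1.56-fold (adjusted p = 0.0239) and 1.46-fold lower (adjusted p = 0.0200). The checkpoint kinase Chek1 was 1.63-fold lower and the fork protector Timeless 1.37-fold lower (adjusted p = 0.0388 each).

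Some lower genes outside both lists are also known for dividing cells, and all but Fam83d and Rbl2 are named here after their values were seen. Ezh2, the methyltransferase of Polycomb complex 2, had levels of 6.48, 6.39, 6.55 and 6.52 at day 14, against 7.01, 6.94, 6.91 and 6.98 at day 3. The spread within each day was narrow, and Ezh2 was 1.39-fold lower (adjusted p = 0.0178). Kntc1, a kinetochore gene, was 1.56-fold lower (adjusted p = 0.0165), and the spindle protein gene Fam83d was 2.54-fold lower (adjusted p = 0.0303). The histone H2A genes Hist1h2ail1 and H2ac4 were 2.33-fold (adjusted p = 0.0165) and 1.87-fold lower (adjusted p = 0.0303). Histone genes are near copies of each other, so which copy the probes read is uncertain. In the pocket protein family, which holds cell cycle genes off, Rbl1 was 1.83-fold lower (adjusted p = 0.0484) and Rbl2 was higher. Rbl2 had 10.20, 10.48, 10.42 and 10.02 at day 14, against 9.77, 9.78, 9.87 and 9.84 at day 3, a 1.38-fold rise with an adjusted p of 0.0423. It was the only call among the 14 measured cell cycle inhibitors and p53 targets, of which 7 lay above 0 and 7 below.

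Other lower genes are not known for cell division, and of these Abcg2 and Tnfrsf9 were also named after their values were seen. Abcg2, an efflux transporter of the canalicular membrane, had levels of 7.36, 6.79, 7.26 and 7.53 at day 14, against 8.11, 8.24, 8.16 and 8.51 at day 3, and was 2.03-fold lower (adjusted p = 0.0197). Every day 14 array lay under every day 3 array. Alox15, a lipoxygenase of macrophages and eosinophils, had 6.81, 6.42, 6.47 and 6.85 at day 14, against 8.08, 8.11, 7.32 and 8.32 at day 3, and was 2.50-fold lower (adjusted p = 0.0388). Tnfrsf9, a costimulatory receptor of the TNF receptor family, was 1.80-fold lower (adjusted p = 0.0423).

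Col3a1, Col1a1, Col6a2 and the gelatinase gene Mmp2 were lower at day 14. Of 19 measured collagens, 3 fell (15.8%), all 19 had a change below 0, the median change was -0.15, and 8 (42.1%) had no overlap. Over all genes, 0.353% were called lower and 2.96% were lower without overlap. Col3a1, a fibrillar collagen of the reticular network, had levels of 10.50, 10.61, 10.59 and 10.74 at day 14, against 11.28, 11.32, 11.18 and 10.99 at day 3. Day 3 array 4 was nearest to the day 14 arrays, and Col3a1 was 1.497-fold lower (interval 1.29 to 1.73, adjusted p = 0.0289). Col1a1, the main chain of collagen I, had 7.26, 7.14, 7.55 and 7.35 at day 14, against 8.17, 8.09, 7.72 and 7.74 at day 3, and was 1.52-fold lower (interval 1.29 to 1.80, adjusted p = 0.0351). Its day 3 arrays fell into a higher and a lower pair, both above the day 14 arrays. Col1a2, the other chain of the same fibre, changed by -0.48 and did not pass (adjusted p = 0.220). Of the beaded filament collagens, Col6a2 was 1.31-fold lower (adjusted p = 0.0303), and Col6a1 changed by -0.30 with an adjusted p of 0.0536.

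Mmp2, a gelatinase made by stellate cells and fibroblasts, had levels of 7.58, 7.55, 7.48 and 7.54 at day 14, against 8.04, 8.06, 7.90 and 7.87 at day 3, and was 1.35-fold lower (adjusted p = 0.0388). It was the only call among 23 genes of collagen processing and matrix turnover, of which 11 had a change above 0 and 12 below. None of 36 other matrix genes passed, although 30 had a change below 0. Of the 36, 10 (27.8%) were lower at an unadjusted p under 0.05 (limma), against 4.68% of all genes. Among the 10 were Lum, a collagen-binding proteoglycan (-0.79, adjusted p = 0.0934), and Mfap4, a microfibril protein (-0.76, adjusted p = 0.0666). Lox, the collagen cross-linking oxidase, varied widely within a day, with 11.15, 7.85, 11.37 and 9.86 at day 14 against 7.04, 5.92, 6.48 and 9.82 at day 3 (change 2.74, adjusted p = 0.606). Markers of stellate cells and fibroblasts that are not matrix genes are given beside these. None of their 17 members passed, 15 had a change below 0, and their mean level was 8.17 to 8.27 on the day 14 arrays and 8.17 to 8.35 on the day 3 arrays. Their summed intensity was 15809 to 18313 at day 14 and 17283 to 20723 at day 3. Their part in the collagen result was not tested.

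Among lipid synthesis genes nearly all changes lay below 0, and 1 gene passed the test. Me1, which supplies NADPH for fatty acid synthesis, had levels of 12.02, 11.35, 11.40 and 11.95 at day 14, against 14.57, 12.71, 14.84 and 13.16 at day 3. Day 3 arrays 1 and 3 were the highest, and the groups did not overlap. Me1 was 4.41-fold lower (interval 2.33 to 8.33, adjusted p = 0.0476). Of 29 measured genes of fatty acid and triglyceride synthesis, 27 had a change below 0, with a median of -0.52, 13 were lower at an unadjusted p under 0.05, and 6 (20.7%) had no overlap. Pnpla3, a lipase that follows the lipogenic program, had 7.09, 6.85, 6.08 and 7.90 at day 14, against 10.73, 9.22, 13.27 and 8.84 at day 3. Its 2 groups did not overlap, but the day 3 arrays spanned more than 4 units, and its change of -3.54 had an adjusted p of 0.0509. Without day 3 array 3 the change was -2.62 and passed the threshold. Elovl6, an elongase of long-chain fatty acids, had 11.82, 10.71, 11.12 and 13.52 at day 14, against 14.66, 14.30, 14.72 and 13.55 at day 3. Day 14 array 4 lay just below the lowest day 3 array, so the groups did not overlap, and the adjusted p was 0.101. The 3 probe sets of Elovl6 changed by -2.52, -2.36 and -1.80.

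The mean level of the fatty acid list was 12.43, 12.20, 11.90 and 12.62 on the day 14 arrays, against 13.14, 12.94, 13.43 and 12.63 on the day 3 arrays. Array 4 of each day was therefore the closest to the other day. For cholesterol synthesis and uptake, 21 of 23 genes had a change below 0, with a median of -0.34, 11 were lower at an unadjusted p under 0.05, and none passed after adjustment. Pmvk, a kinase of the mevalonate pathway, had the smallest adjusted p (change -0.57, adjusted p = 0.0689), and Sqle, squalene epoxidase, changed by -0.84 (adjusted p = 0.531). The sterol element TCACCCCAC, searched on both strands, was in 0 of the 19 promoters found for the cholesterol list and in 0.495% of all promoters. The labels give neither the hour of killing nor the feeding state. The 19 clock genes, whose levels follow the hour, had changes between -0.86 and 0.37. Their median change was 0.01, with none past an unadjusted p of 0.05 (limma). Their median SD was 0.39 at day 14 and 0.18 at day 3. Clock genes peak at different hours, so this median cannot tell whether the hour of killing differed between the days.

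**Figure D2:**
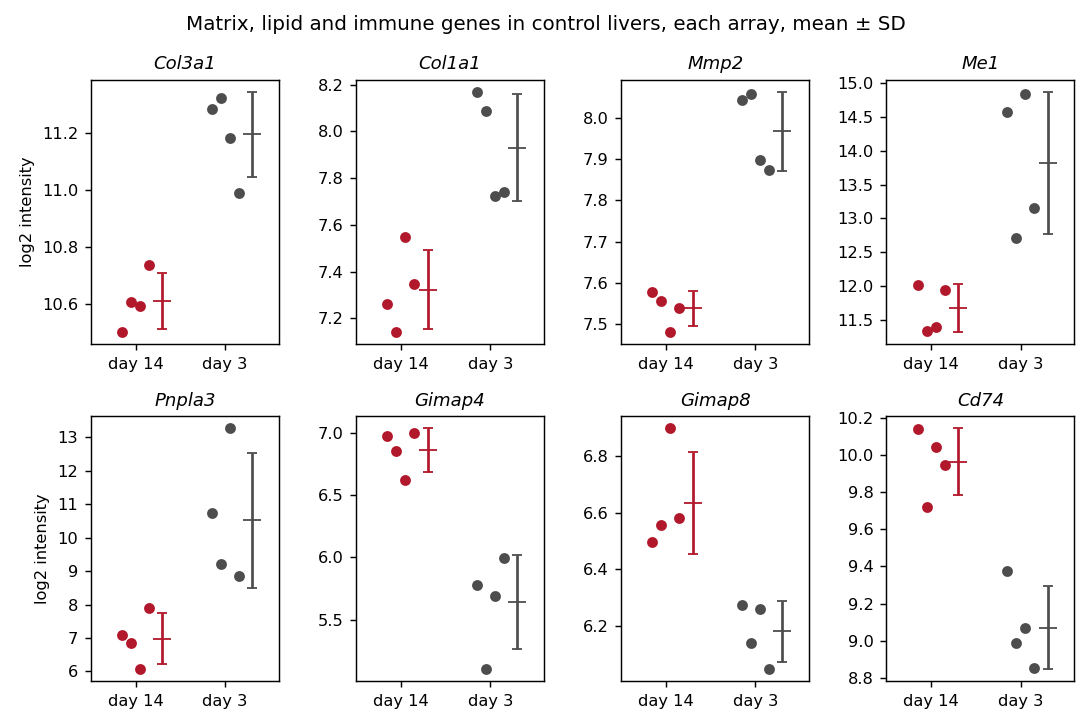
Levels of matrix, lipid and immune genes, 1 point an array with the mean ± SD (n = 4) beside the points, as log2 of the deposited intensity, for control livers at day 14 (red, left) and day 3 (grey, right). The groups do not overlap in any of the 8 panels, although Pnpla3 and Cd74 did not pass the test.

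Of the 11 higher genes, 3 were GIMAP genes, which encode GTPases of lymphocytes and some endothelial cells that lie in a gene cluster. Gimap4 had levels of 6.97, 6.85, 6.62 and 7.00 at day 14, against 5.77, 5.10, 5.69 and 5.997 at day 3. It was 2.33-fold higher (interval 1.80 to 3.01, adjusted p = 0.0165), and the lowest day 14 array was above the highest day 3 array. Gimap8 had 6.50, 6.56, 6.90 and 6.58 at day 14, against 6.27, 6.14, 6.26 and 6.05 at day 3, and was 1.37-fold higher (adjusted p = 0.0388). Gimap9 had 3.94, 4.54, 4.11 and 3.98 at day 14, against 3.69, 3.66, 3.28 and 3.43 at day 3, and was 1.55-fold higher (adjusted p = 0.0478). The groups did not overlap for Gimap8 or Gimap9. All Gimap9 levels lay below the median gene (5.86), and whether they exceed background is unknown. All 7 measured GIMAP genes had a change above 0, but the median was 0.09 and the other 4 did not pass.

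Markers of T cells did not pass the test beside the GIMAP genes. None of 21 passed even an unadjusted p under 0.05, with a median change of 0.01 and a mean level of 5.33 to 5.48 at day 14 and 5.31 to 5.41 at day 3. Of these markers 19 averaged below the median gene (5.86), so they do not show whether T cell content changed. Their summed intensity was 2224 to 3130 at day 14 and 1658 to 2233 at day 3. The T cell receptor subunit gene Cd3e changed by 0.07 (adjusted p = 0.947). Natural killer cell markers had a median change of 0.17 with 1 of 13 higher at an unadjusted p under 0.05, and 11 of the 13 averaged below the median gene. Endothelial markers had a median of 0.14, with 22 of 24 above 0, 4 higher at an unadjusted p under 0.05 and none after adjustment, and their mean level was 8.83 to 9.07 at day 14 and 8.79 to 8.85 at day 3. The sinusoidal nuclease gene Dnase1l3 changed by 0.43 (adjusted p = 0.195) and the angiopoietin receptor gene Tek by 0.37 (adjusted p = 0.195). The part of these cells in the GIMAP result was not tested.

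Macrophage markers and class II antigen presentation genes lay higher at day 14 in these arrays without passing. Over all genes, 2.47% were higher at an unadjusted p under 0.05 (limma), and 1.54% were higher without overlap. Of 21 macrophage markers, 19 had a change above 0, with a median of 0.34. Of the 21, 2 (9.52%) were higher at an unadjusted p under 0.05, and 3 (14.3%) had no overlap. The mean level was 9.18 to 9.60 at day 14 and 8.59 to 9.29 at day 3, which overlap. Csf1r, the receptor for macrophage colony-stimulating factor, changed by 0.67 (adjusted p = 0.698), and Clec4f, a lectin of Kupffer cells, by 0.31 (adjusted p = 0.923). All 9 class II genes had a change above 0, with a median of 0.36, and 4 (44.4%) had no overlap. Their mean level was 7.56 to 7.81 at day 14 and 7.13 to 7.39 at day 3. Cd74, the class II invariant chain, had 10.14, 9.72, 10.04 and 9.95 at day 14, against 9.38, 8.99, 9.07 and 8.85 at day 3. Its groups stood apart, yet its adjusted p was 0.536. The spread estimate is shared by all 4 groups, and Cd74 had an SD of 0.95 among the phenformin day 3 livers, against 0.18 and 0.22 in the control livers at day 14 and day 3.

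The other higher genes were unlike each other. Gstm7, a glutathione transferase, had levels of 10.62, 10.57, 10.41 and 10.24 at day 14, against 9.90, 9.84, 9.90 and 9.78 at day 3, and was 1.52-fold higher (adjusted p = 0.0476). The microRNA gene Mir293 had 6.62, 6.39, 6.62 and 6.21 at day 14, against 5.91, 5.71, 5.73 and 5.94 at day 3, and was 1.55-fold higher (adjusted p = 0.0486). Mir293 belongs to a cluster known in rodents from embryonic stem cells. Its mature sequences from RefSeq on GRCr8 (chromosome 1) are shown because the probe set does not tell its arms apart, with the seed, bases 2 to 8, in capitals.
rno-miR-293-3p: aGUGCCGCaaaguuugcagugu
rno-miR-293-5p: aCUCAAACugugugacacuuu
The bitter taste receptor gene Tas2r107 was 1.75-fold higher (adjusted p = 0.0404) and the olfactory receptor gene Or5w19 was 1.44-fold higher (adjusted p = 0.0486), the second from 2 probe sets with the same values. Both receptor genes averaged below the median probe set (5.01), and whether they exceed background is unknown. The remaining 3 higher genes carry placeholder symbols and are not described.

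**Figure D3:**
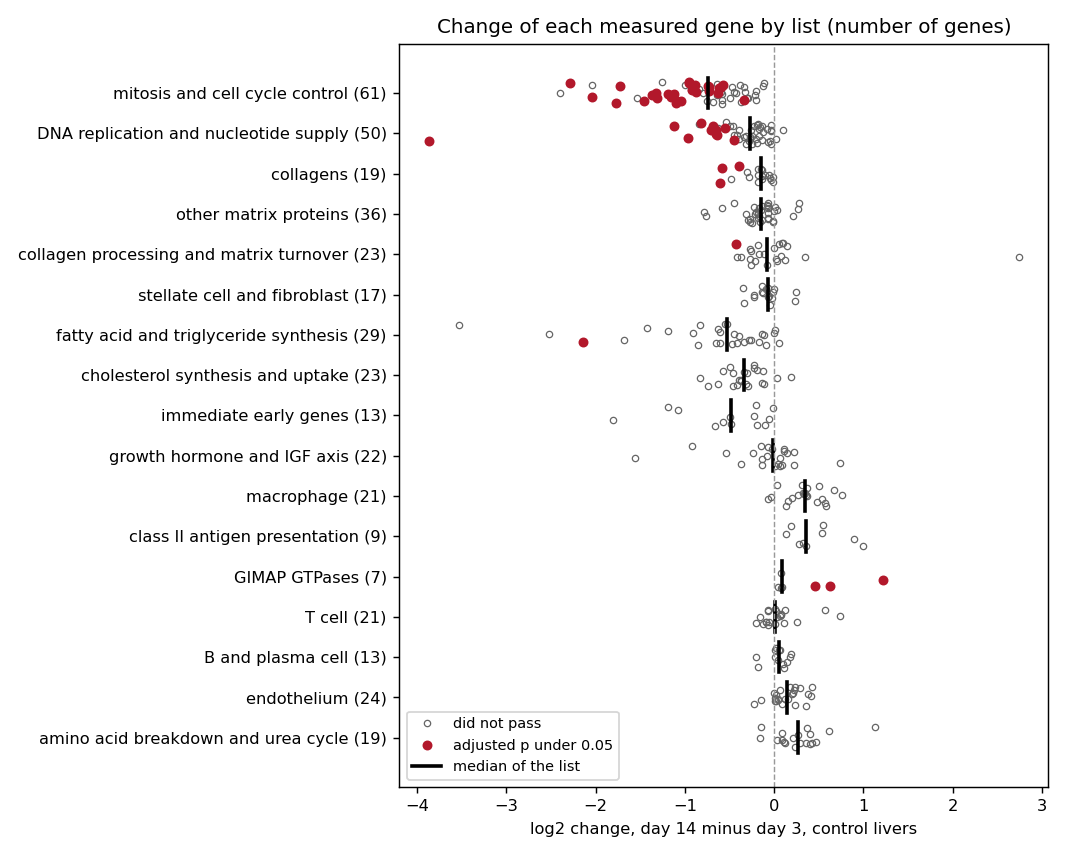
Change of every measured member of 17 gene lists, as the control day 14 mean minus the control day 3 mean of log2 intensity, 1 point a gene, with genes at an adjusted p under 0.05 filled and the median of each list as a bar. Points of the mitosis list all lie below 0, and those of the GIMAP and class II lists all lie above it.

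In other lists nothing passed after adjustment. Over all genes, 4.68% were lower and 2.47% higher at an unadjusted p under 0.05 (limma). The growth hormone and insulin-like growth factor axis had 11 of 22 genes above 0 and a median of -0.01. The foetal and imprinted growth genes had a median of -0.02 over 18 genes, and the sex- and maturity-dependent genes 0.09 over 21 genes, with none of the second list past an unadjusted p of 0.05. Immediate early genes, which respond to stress and growth signals within the hour, had all 13 changes below 0 and a median of -0.48, with 3 (23.1%) past an unadjusted p of 0.05. They varied between animals: Egr1 had 12.87, 8.58, 9.67 and 6.80 at day 14, against 11.05, 10.23, 13.05 and 10.82 at day 3. The 19 genes of amino acid breakdown and the urea cycle had 17 changes above 0 and a median of 0.27, and Gls2, the liver glutaminase, changed by 0.61 (adjusted p = 0.0866). In this list 3 genes (15.8%) were higher without overlap, against 1.54% of all genes. Endoplasmic reticulum chaperones had 13 of 16 changes below 0 and a median of -0.19, with 4 (25%) lower at an unadjusted p under 0.05. The acute phase list had a median of 0.03, the interferon list 0.05, fatty acid oxidation 0.03 and nuclear complex I -0.04. Markers of B cells (median 0.05), neutrophils (-0.08), cholangiocytes (-0.07) and erythroid cells (-0.22) gave no calls either. Of the erythroid markers, 2 of 8 (25%) were lower at an unadjusted p under 0.05. Most B cell markers (9 of 13) and neutrophil markers (11 of 12) averaged below the median gene.

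The phenformin livers of the same days share no array with the control livers, so their own change, day 14 minus day 3, was set beside the control change. Of 22093 genes, 0 (0%) passed an adjusted p under 0.05 (limma) in the phenformin livers and 1704 (7.71%) passed an unadjusted one. For the 78 genes lower in the control livers, the median change was -0.84 in control livers and 0.12 in phenformin livers, where 57 of the 78 changes were above 0. For the 61 mitosis genes the median was -0.74 in control livers and 0.21 in phenformin livers, and all 61 lay above 0 there. Rrm2 averaged 7.37 at day 14 and 11.24 at day 3 in control livers, and 7.29 at day 14 and 6.99 at day 3 in phenformin livers. The mean level of the mitosis list was 5.53 at day 14 and 6.40 at day 3 in control livers, and 5.71 at day 14 and 5.45 at day 3 in phenformin livers. The control day 3 livers thus had the highest mean of the 4 groups.

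The difference between the time changes, phenformin minus control, was tested for every gene. Only Anlnl1, an anillin-like gene named here after its values were seen, passed (1 of 22093, 0.00453%). Anlnl1 had levels of 4.66, 4.25, 4.92 and 4.81 in control livers at day 14, against 5.78, 5.58, 5.57 and 5.73 at day 3, a 2.01-fold fall with an adjusted p of 0.0165. In phenformin livers it averaged 4.92 at day 14 and 4.35 at day 3, a change of 0.57 (adjusted p = 0.331). The difference was 1.58 (adjusted p = 0.0284). Averaged over all arrays, Anlnl1 lay at 4.90, below the median probe set (5.01), although its control day 3 mean of 5.67 lay above it. Whether its lower levels exceed background is unknown. At an unadjusted p under 0.05, 1034 genes (4.68%) differed, and among them were 57 of the 61 mitosis genes and 28 of the 50 replication genes. This difference contains the control change of the same arrays, so these counts are not independent of the control result. The difference for Rrm1 was 1.06 (adjusted p = 0.0925) and for Rrm2 4.17 (adjusted p = 0.170), so neither passed.

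For the other groups the changes on both feeds are set side by side. Fatty acid synthesis had a median change of -0.52 in control livers and -0.51 in phenformin livers, with 27 of 29 changes below 0 in each, and 3 genes differed at an unadjusted p under 0.05. Other lists were less alike. The cholesterol list had a median of -0.34 in control livers and 0.07 in phenformin livers. Class II genes had 0.36 in control livers and -0.07 in phenformin livers, and macrophage markers had 0.34 and 0.04. Collagens had -0.15 and -0.06. Me1 changed by -2.14 in control livers and by -1.46 in phenformin livers (adjusted p = 0.429). Abcg2 changed by -1.02 in control livers and by -0.87 in phenformin livers (adjusted p = 0.137), and Tnfrsf9 by -0.85 in control livers and by -1.14 in phenformin livers (adjusted p = 0.0878). Col3a1 changed by -0.58 in control livers and by -0.21 in phenformin livers, and Gimap4 by 1.22 in control livers and by 0.33 in phenformin livers. None of these differences passed after adjustment.

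**Figure D4:**
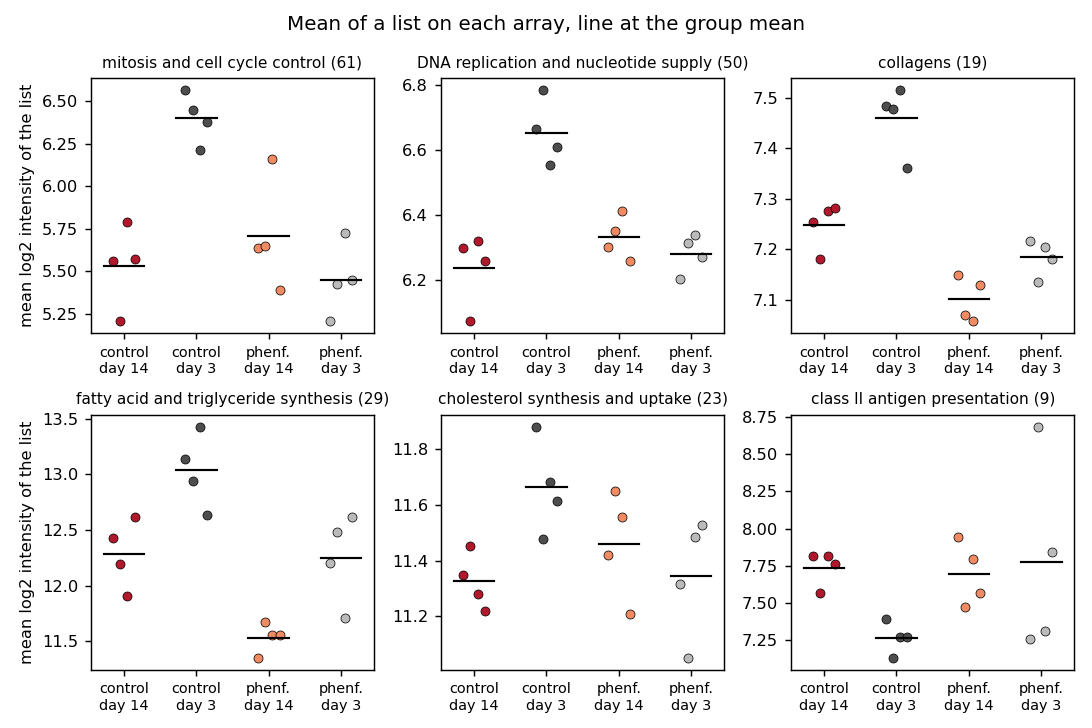
Mean log2 intensity of 6 gene lists, 1 point an array and a line at the group mean, for control livers at day 14 and day 3 and phenformin livers at day 14 and day 3. The mitosis list averages 6.21 to 6.57 on the control day 3 arrays and 5.21 to 5.79 on the control day 14 arrays.

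The number of calls depended on single arrays. Without day 3 array 1 0 genes passed in either direction (smallest adjusted p 0.0762, limma), and without day 14 array 2 none passed either (smallest adjusted p 0.0572). At an unadjusted p under 0.05 the counts without day 3 array 1 were 851 lower and 475 higher, and without day 14 array 2 they were 790 lower and 437 higher. Without day 3 array 2, the array with the muscle markers, 9 genes were lower and 5 higher, and the mitosis list had 1 call. With day 3 array 4 left out there were 7 lower and 1 higher, with day 14 array 1 left out 20 lower and 4 higher, and with day 14 array 4 left out 35 lower and 11 higher. Leaving out day 3 array 3 gave 55 lower and 2 higher, and leaving out day 14 array 3 gave 58 lower and 3 higher. When the spread came only from the 8 control arrays, no gene passed (smallest adjusted p 0.0574), against 1028 lower and 607 higher at an unadjusted p under 0.05. All 89 called genes kept their direction in every one of these fits. The groups did not overlap in 77 of the 78 lower genes and in all 11 higher genes. Leaving out 1 array could not reverse these, and the fit on the 8 control arrays kept the same group means. Rrm1, Mcm6, Cdk1, Kntc1, Hist1h2ail1 and Gimap4 stayed past the threshold in 6 of the 8 fits that leave out 1 control array, Col3a1 in 4, Rrm2 in 3, and Top2a and Me1 in 1. Foxm1, Ect2, Ccnb1, Tyms, Mmp2, Gimap8 and Gimap9 passed in 0 of those 8 fits.

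**Figure D5:**
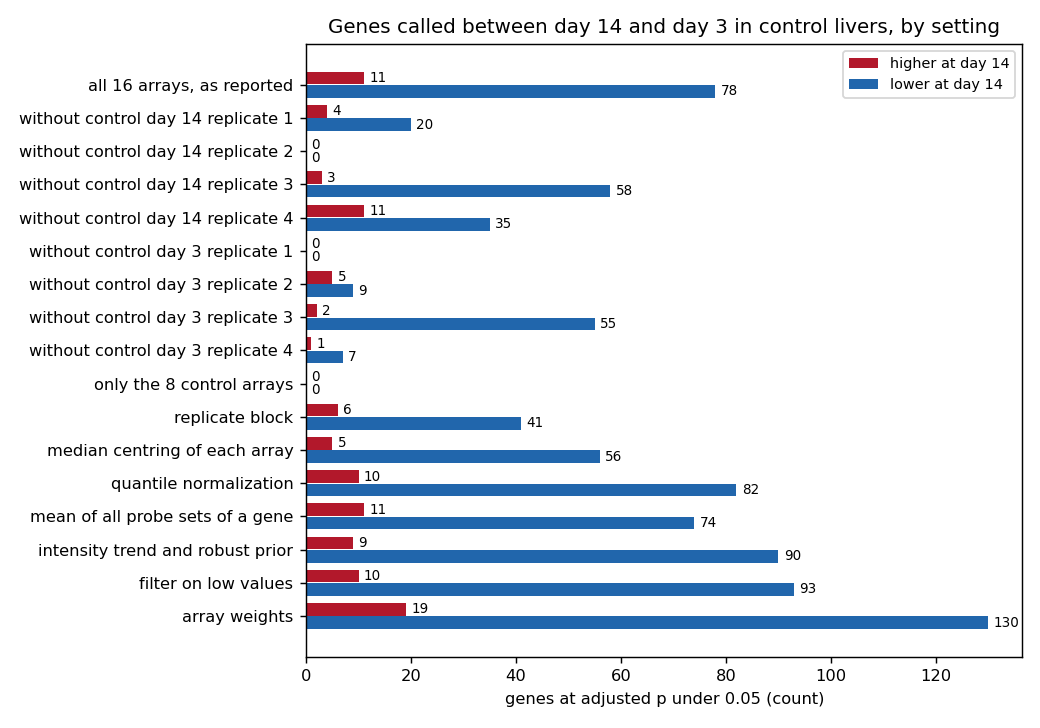
Number of genes called higher and lower at day 14 in control livers at an adjusted p under 0.05, for the fit as reported and for each alternative. The counts run between 0 and 130 lower and between 0 and 19 higher, and leaving out day 3 array 1 or day 14 array 2 gives 0 of each.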

How the data were processed

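Liver RNA of 16 rats was measured on a 1-colour Affymetrix whole-transcript array. The deposited intensity values, 1 per probe set and array on a linear scale, were made by the authors with RMA per the submitters' processing notes; the sources used here do not name the software, its version or any rescaling, so a fold compares deposited values and may differ from the ratio of RNA amounts. The lowest array median was 30.89 and the highest 34.46. The number of arrays limits the precision.

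For this comparison log2 of the deposited intensity was taken with no pseudocount or filter. Groups and replicate numbers came from the titles. Probe sets naming no gene (44891) or more than 1 (505) were not used. For 1182 genes with several probe sets, the brightest on average was taken. Symbols came from the platform annotation, and the chromosome in the identifier differed from RefSeq for 335 of 23010 probe sets checked. limma 3.58.1 in R 4.3.3 fitted 1 mean per group over 16 arrays (12 residual degrees of freedom), with two-sided tests and Benjamini-Hochberg adjustment over 22093 genes. It was tested on simulated data. No list was tested as a set. Genes with calls in the lists, the 5 smallest p-values of each list, and the 15 largest called changes in each direction without overlap or placeholder symbols were eligible to be named, with 8 cell type markers. The 45 lists, the genes and this comparison were chosen with earlier results of these data known. Alternatives changed the arrays, spread model, filter, normalization, weights, block and probe set rule.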

Additional observations from a re-analysis of the deposited data

Results flagged for a closer look

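Of 318 sets of 4 arrays checked, 12 (3.77%) held an array whose gap to the nearest of the others took more of the range than Dixon's 95% critical value allows, and chance gives about 5%. Among day 14 arrays, array 2 had Rrm2 at 5.45 (others 7.83 to 8.30). Day 14 array 4 had Sqle at 10.25 (others 10.46 to 10.49), Cd3e at 5.025 (others 5.057 to 5.061), a circadian clock list mean of 7.803 (others 8.237 to 8.323) and an acute phase list mean of 16.01 (others 16.13 to 16.15). Among day 3 arrays, array 1 was high for Brip1 at 5.57 (others 5.282 to 5.313), Cenpk, a kinetochore gene, at 5.928 (others 5.768 to 5.78) and RT1-Da, a class II chain, at 9.244 (others 8.603 to 8.697). Day 3 array 3 was low for Ccnb1 at 6.54 (others 6.928 to 6.975), and array 4 was low for Dnase1l3 at 11.35 (others 11.53 to 11.56). Day 3 array 2, which also had the highest skeletal muscle markers, was low for Alb at 19.87 (others 19.9 to 19.91) and high for the adipocyte list at 5.586 (others 5.452 to 5.471). All are log2 levels.

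The time change of Anlnl1 differed between feeds, with phenformin minus control at 1.583 (limma, adjusted p = 0.0284). Its mean over all arrays (4.90) lay below the median probe set (5.01), and whether its lower levels exceed background is unknown.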

How the results depend on the processing

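All 89 called genes kept their direction in every alternative that tested them, and the filter on low values tested 74 of them. Leaving out or weighting arrays, or changing the spread model or filter, could not reverse a gene whose groups did not overlap. Counts of lower and higher genes (78 and 11) became 0 and 0 with the spread from only the 8 control arrays, 130 and 19 with array weights, 56 and 5 with median centring, and 41 and 6 with the replicate block, 44 of whose calls were among the 89. The labels give no shared source for same-numbered arrays, whose deviations correlated at -0.002, 0.115, 0.137 and 0.066, and 4 of 8 arrays correlated best with their own number. Leaving out 1 array gave 0 to 58 lower and 0 to 11 higher. Mitosis calls (27) were 0 with the 8 control arrays, 43 with weights, 15 with the replicate block and 0 to 21 without 1 array; replication calls (11) were 0, 13, 6 and 0 to 10. Genes with a different time change on phenformin (1) numbered 0 with the filter, 2 with weights, 0 with the replicate block and 0 to 10 without 1 array. The filter left out Anlnl1, so its count of 0 says nothing about that gene. The change of Alb, 0.0085 as reported, was -0.0003 to 0.0125 without 1 array, and below 0 without day 3 array 2. The trend and robust prior, quantile normalization and mean of probe sets left each of the 2 counts within 1.5 times of the reported one. The cause of these shifts was not tested. No background or detection value was used, so which low levels exceed background is unknown here.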
